A study of Mus musculus with 12 samples.

Results

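The genes described here are 36 genes of glycolysis, of lactate transport and of the pentose phosphate pathway, with the pyruvate dehydrogenase subunits and the regulators that stand beside them. They were chosen by name for their roles in glucose use, with earlier results of these arrays known. Of the 36, 32 were named by a probe set that named no other gene, and 29 of those had a log2 value above 4 on at least 3 arrays and entered the tests, out of 9293 tested genes and 18193 genes with such a probe set in all. Levels were read on 12 one-colour Affymetrix arrays from splenic B cells of mice on a mixed 129/Sv-C57BL/6 background, sorted by flow cytometry on the surface protein B220. There were 4 groups of 3 arrays. The deleted cells were labelled Foxp1flox/del and were incubated for 4 h with IgM in the first group and without it in the second. The control cells were labelled Foxp1wt/flox and were likewise incubated for 4 h with IgM in the third group and without it in the fourth. Thus all 4 groups carried a conditional (flox) allele of Foxp1, a forkhead transcription factor of lymphocytes. The labels name no Cre line, and do not say whether the flox allele was recombined or which IgM reagent was added. Nor do they give the animal or culture behind a replicate, so a p-value here weighs a difference only against the spread of these arrays, which may be technical.

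Glycolysis splits glucose into pyruvate in a chain of enzymes that starts with hexokinase. Phosphofructokinase is its main point of control, and lactate dehydrogenase at its end turns pyruvate into lactate, which leaves the cell through monocarboxylate transporters. The pentose phosphate pathway branches off after hexokinase and yields NADPH and ribose phosphate for nucleotides. Resting B cells use little glucose, and stimulation of the B cell receptor is known to raise glucose uptake and glycolysis, with Myc and Hif1a among the factors known to activate the genes.

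The cells carried the RNA of B cells: of 10 fixed B cell markers 9 had a probe set, and all 9 passed the filter on low values. Markers of other cell types were mixed. Of 8 T cell markers 7 had a probe set, with Cd4 and Thy1 below 2.5 on all arrays, close to the floor of 2.23 that the deposited values share, and Cd3d at 3.44 to 8.30 and Cd3g at 3.20 to 6.41. The myeloid marker Itgam and the erythroid marker Hba-a1 also lay below 2.5 on all arrays, whereas Lyz2 of macrophages and granulocytes reached 11.29, Csf1r of macrophages 8.36 and Alas2 of erythroid cells 9.71. The highest values of the 8 neutrophil and granule markers ran from 6.63 for Ltf to 13.06 for Mpo. Those of the 7 NK cell markers with a probe set ran from 4.44 for Ncr1 to 10.45 for Gzma. Foxp1 itself was read by 8 probe sets. The brightest of them averaged 12.65 ± 0.46 in deleted cells with IgM and 12.68 ± 0.53 in control cells with IgM, and 12.87 ± 0.53 in deleted cells and 12.90 ± 0.55 in control cells without IgM (log2, SD, n = 3). The sources used here do not give the deleted exons, so a probe set may lie outside them, and these readings do not check the genotype labels. A single array stood apart: deleted IgM replicate 3 correlated with its group mates at 0.817 and 0.865 over the tested genes, against 0.951 or more for the other pairs within groups. Without it, the difference of deleted minus control cells with IgM turned sign for 14 of the 29 tested genes and that of IgM minus no IgM in deleted cells for 7, none of them called with it or without it. Single-gene values given here whose direction turned or whose call changed are given both ways.

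Relative to the mean of its 2 group mates, the array that stood apart read short genes low and long genes high. The median log2 deviation over all tested genes was -1.29 in the fifth of genes with the shortest genomic span and 0.81 in the fifth with the longest. Among the 29 glycolytic and pentose phosphate genes the array read 8 by more than 1 below its mates. These were Pgls (-2.82), Rpia (-2.67), Taldo1 (-2.09), Aldoa (-1.67), Tpi1 (-1.58), Pdhb (-1.08), Eno3 (-1.08) and Ldhb (-1.07). At the other end, 6 genes lay more than 0.5 above their mates, with Hif1a at 1.33, Pfkp at 1.20 and Pdk1 at 1.03.

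**Figure D1:**
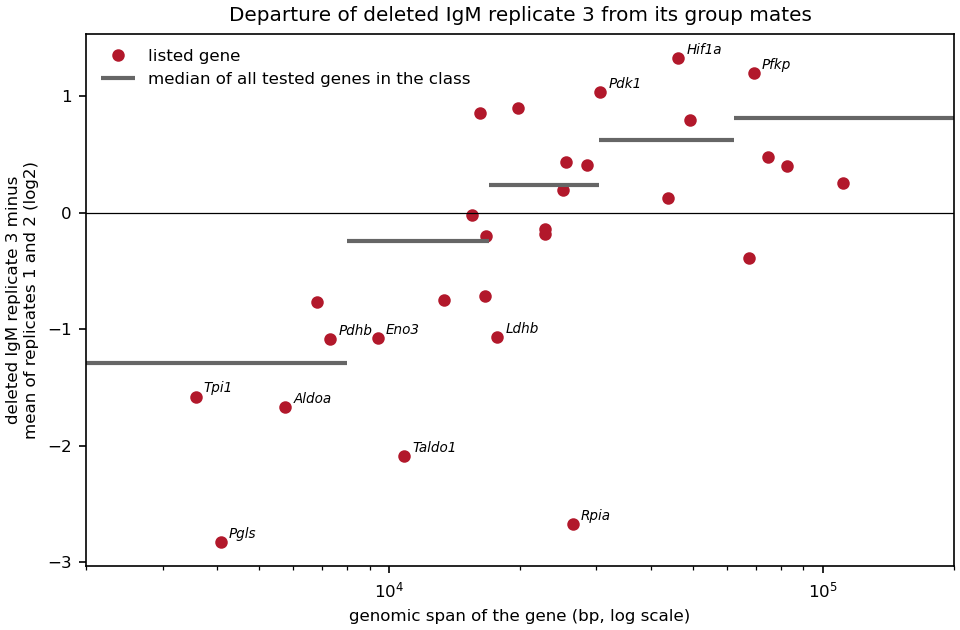
Log2 level on deleted IgM replicate 3 minus the mean of replicates 1 and 2 of the same group, against the genomic span of each gene on a log axis. Points are the 29 tested glycolysis and pentose phosphate genes, named where the deviation exceeds 1 in size, and grey bars are medians of all tested genes in 5 span classes, drawn between 2000 and 200000 bp only. Pgls lies lowest at -2.82 and Hif1a highest at 1.33.

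With IgM, a set of transport and control genes rose in both genotypes, namely the lactate transporter Slc16a1, the hexokinase Hk2, the phosphofructokinase Pfkp, the lactate dehydrogenase Ldha and the regulator Pfkfb3. Pfkfb4 fell in both. In deleted cells 6 of the 29 genes rose and 2 fell, and in control cells again 6 rose and 2 fell, at a limma adjusted p under 0.05. Over all 9293 genes tested, 19.0% were called in deleted cells, 9.78% being higher, and 20.7% in control cells, 8.71% being higher. The share called in either direction among the 29, 27.6% in each genotype, was not far from the background. By direction, the 6 rises of 29 stood above the share of higher calls over all genes and the 2 falls did not stand above that of lower calls. These departures were not tested. The median log2 difference of the 29 was 0.25 in deleted cells, against -0.08 over all tested genes, and 0.05 in control cells, against -0.05. Of the 8 genes called in each genotype, 6 were called in both.

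The replicate numbers pair the arrays, and with the number as a block the calls became 8 higher and 4 lower in deleted cells, where 36.7% of all genes were called, and 6 higher and 3 lower in control cells, where 35.5% were. Without deleted IgM replicate 3 there were again 8 higher and 4 lower in deleted cells (25.7% of all genes) and 6 higher and 3 lower in control cells (36.1%). After quantile normalization of the deposited values a further time, 5 were higher and 3 lower in deleted cells. The summed linear level of the 9 B cell markers was itself lower with IgM, at 49811 to 66761 in deleted cells with IgM, against 90791 to 92169 without it, and at 43899 to 47487 in control cells with IgM, against 92987 to 97984 without it. Such a sum weighs the brightest markers most. Cr2 went the other way, with a log2 mean of 10.93 against 8.72 in deleted cells and 9.99 against 8.87 in control cells, while the other B cell markers averaged lower with IgM. That of the 7 T cell markers was 51.6 to 271 in deleted cells with IgM, against 160 to 441 without it, and 85.7 to 206 in control cells with IgM, against 90.7 to 241 without it. In such bulk samples fewer cells of a type and less RNA per cell cannot be told apart, and the part of these shifts in the results was not tested.

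**Figure D2:**
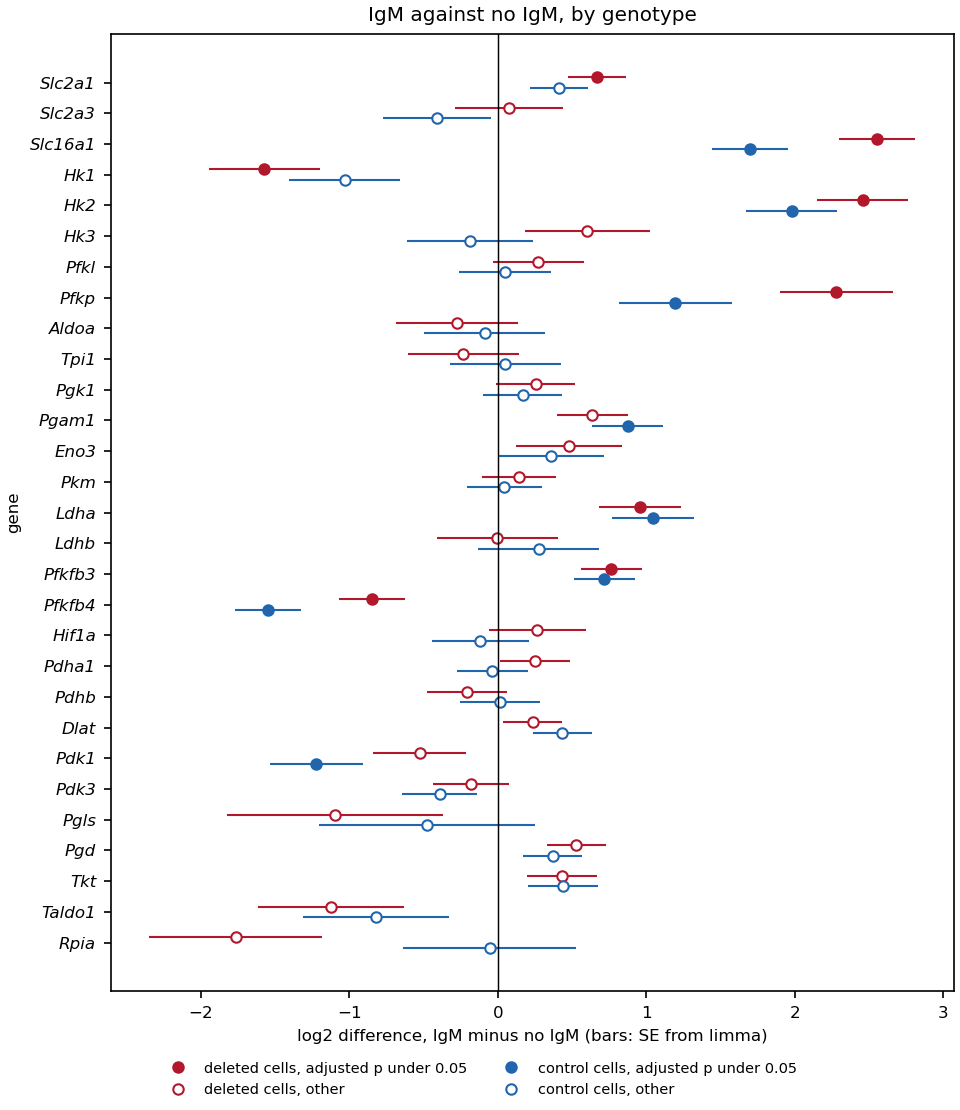
Log2 difference with IgM minus without IgM for each of the 29 tested genes (horizontal axis), in deleted cells (red) and in control cells (blue), with standard errors from limma as bars. Filled points passed an adjusted p of 0.05. Slc16a1, Hk2 and Pfkp lie farthest to the right in deleted cells, at 2.55, 2.46 and 2.28, and Pfkfb4 farthest to the left in control cells, at -1.55.

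Among the transporters, Slc16a1, which carries lactate and pyruvate together with protons, read 12.09, 11.99 and 12.94 in deleted cells with IgM, against 9.84, 9.93 and 9.60 without it. In control cells it read 12.19, 12.19 and 12.37 with IgM, against 10.46, 10.79 and 10.41 without it. The groups with and without IgM lay over 1 log2 unit apart in both genotypes. The rise was 5.87-fold in deleted cells (log2 2.55 ± 0.26 SE, limma adjusted p = 0.000161) and 3.25-fold in control cells (log2 1.70 ± 0.26 SE, adjusted p = 0.00118). Both calls held under all 22 alternative settings, and without deleted IgM replicate 3 the rise in deleted cells was 2.25 on the log2 scale.

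Slc2a1, the main glucose transporter of activated lymphocytes, read 10.91, 10.87 and 11.29 in deleted cells with IgM, against 10.31, 10.29 and 10.47 without it. It rose 1.59-fold there (log2 0.67 ± 0.20 SE, limma adjusted p = 0.0366), or by 0.53 without deleted IgM replicate 3 (adjusted p = 0.0374), a call that held under 11 of 22 alternatives. In control cells it read 10.92, 11.02 and 10.75 with IgM, against 10.59, 10.63 and 10.24 without it, with a log2 difference of 0.41 ± 0.20 SE (adjusted p = 0.181). The arrays with and without IgM did not overlap in either genotype. The second glucose transporter, Slc2a3, lay between 8.94 and 10.26 on all arrays, with differences of 0.08 ± 0.36 in deleted cells, or -0.08 without deleted IgM replicate 3, and -0.41 ± 0.36 in control cells. Slc16a3, a lactate exporter of strongly glycolytic tissue, stayed between 2.24 and 2.27, at the floor of the values.

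Of the hexokinases, which trap glucose as its phosphate, Hk2 rose in both genotypes, Hk1 fell in deleted cells and Hk3 was called in neither genotype, with differences of 0.60 ± 0.42 in deleted cells and -0.19 ± 0.42 in control cells. Hk2 read 9.79, 9.73 and 10.56 in deleted cells with IgM, against 7.49, 7.89 and 7.33 without it. In control cells it read 9.99, 10.22 and 10.25 with IgM, against 7.63, 8.68 and 8.21 without it. It rose 5.49-fold in deleted cells (log2 2.46 ± 0.31 SE, limma adjusted p = 0.000511) and 3.94-fold in control cells (log2 1.98 ± 0.31 SE, adjusted p = 0.00136), and both calls held under all 22 alternatives.

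Hk1, the hexokinase that most resting tissues express, fell in deleted cells. It read 8.54, 8.62 and 8.84 with IgM, against 10.60, 10.38 and 9.74 without it, with no overlap. The fall was 2.97-fold (log2 -1.57 ± 0.37 SE, limma adjusted p = 0.0140), and the call held under 20 of 22 alternatives. In control cells Hk1 read 7.45, 8.42 and 7.34 with IgM, against 8.62, 9.43 and 8.25 without it, and the groups overlapped. Its difference there was -1.03 ± 0.37 (adjusted p = 0.0759), with all 3 same-numbered pairs lower, and with the replicate block it passed the threshold (adjusted p = 0.0223). The second passing probe set of Hk1 gave differences of -1.89 in deleted cells and -1.13 in control cells.

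Of the phosphofructokinases, Pfkp, the platelet-type isoform, rose and Pfkl, the liver-type isoform, was not called. Pfkp read 11.30, 11.80 and 12.75 in deleted cells with IgM, against 9.31, 10.07 and 9.62 without it, a 4.86-fold rise (log2 2.28 ± 0.38 SE, limma adjusted p = 0.00229). Without deleted IgM replicate 3, which lay 1.20 above its mates, the rise was 1.88 (adjusted p = 0.00237). In control cells Pfkp read 10.90, 11.59 and 11.58 with IgM, against 9.75, 10.46 and 10.29 without it, a 2.29-fold rise (log2 1.19 ± 0.38 SE, adjusted p = 0.0470) that held under 10 of 22 alternatives. Its other passing probe sets gave differences of the same sign, 2.93 and 1.55 in deleted cells and 1.20 and 1.67 in control cells, and the dimmer of them gave 0.28 in deleted cells without deleted IgM replicate 3. Pfkl differed by 0.27 ± 0.31 in deleted cells and 0.05 ± 0.31 in control cells.

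**Figure D3:**
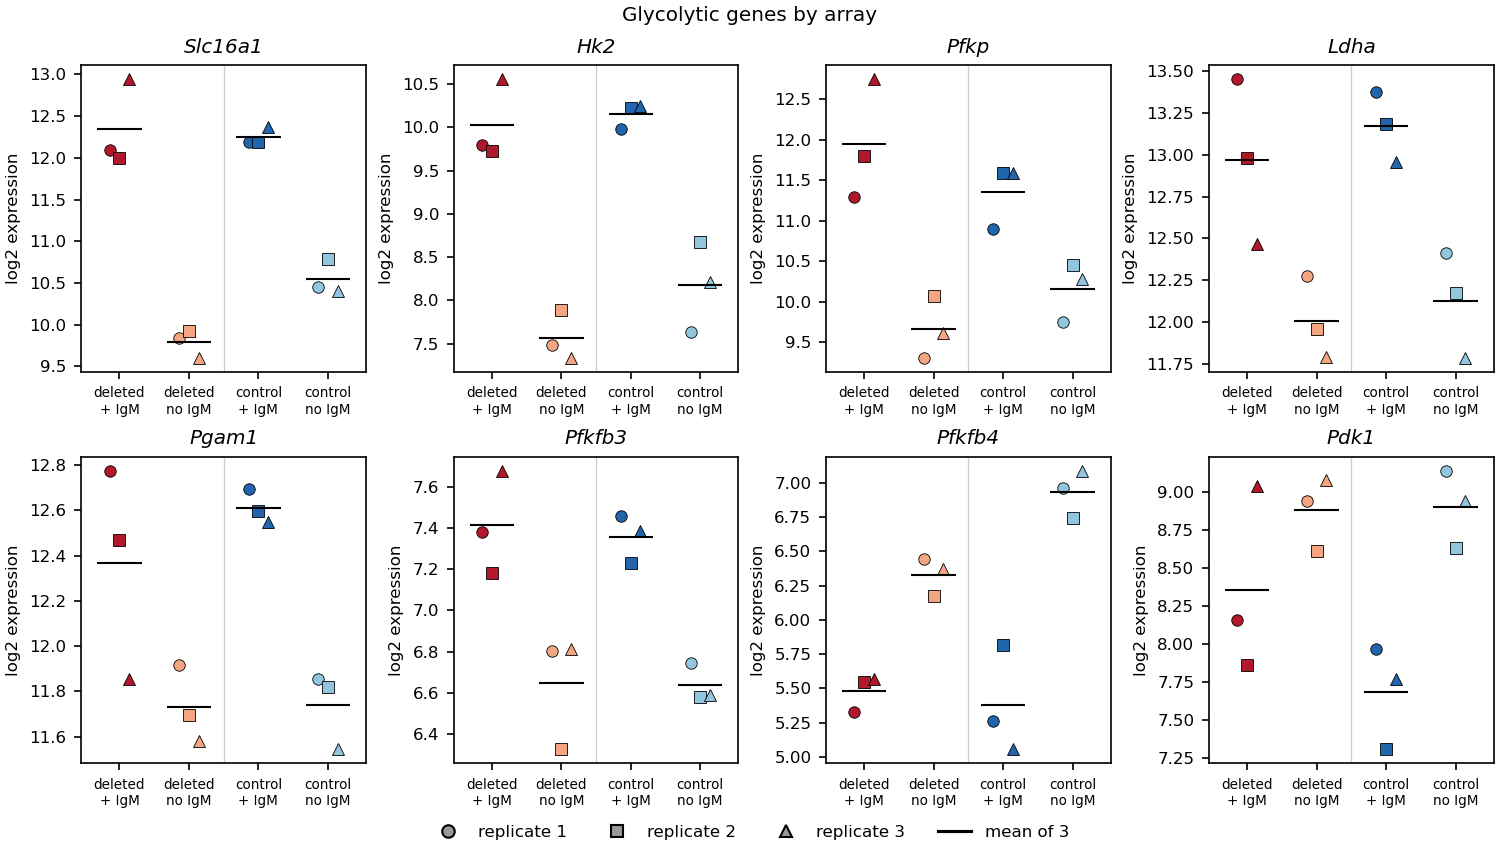
Log2 expression of 8 glycolytic genes on each of the 12 arrays (vertical axis, a separate scale per gene), with deleted cells left and control cells right and the IgM arrays before those without IgM. Symbols give the replicate number and lines the mean of 3 arrays. Slc16a1, Hk2, Pfkp and Ldha separate with IgM in both genotypes, and replicate 1 of Ldha lies highest in each group.

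The lower chain, which turns triose phosphate into pyruvate, gave 1 call. Pgam1, the phosphoglycerate mutase, read 12.69, 12.60 and 12.55 in control cells with IgM, against 11.85, 11.82 and 11.55 without it, a 1.83-fold rise (log2 0.87 ± 0.24 SE, limma adjusted p = 0.0251). In deleted cells it read 12.78, 12.47 and 11.86 with IgM, against 11.92, 11.70 and 11.58 without it, a difference of 0.64 ± 0.24 (adjusted p = 0.0910), and the array that stood apart was the lowest of the IgM arrays. Pgam1 passed the threshold in deleted cells with the replicate block (adjusted p = 0.0186) and without that array (0.89, adjusted p = 0.00421). The other 4 genes of this stretch, Tpi1 (triose phosphate isomerase), Pgk1 (phosphoglycerate kinase), Eno3 (an enolase best known from muscle) and Pkm (pyruvate kinase), were not called in either genotype, with differences of -0.23 to 0.48 in deleted cells and 0.04 to 0.36 in control cells. Without deleted IgM replicate 3 the differences in deleted cells were 0.20 to 0.84, with Eno3 at 0.84 in place of 0.48 and Tpi1 turning from -0.23 to 0.29. Aldoa, the aldolase just above them, differed by -0.28 ± 0.41 in deleted cells, or 0.28 without that array, so its sign rests on it, and by -0.09 ± 0.41 in control cells.

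Ldha, the subunit that favours lactate formation, read 13.45, 12.98 and 12.47 in deleted cells with IgM, against 12.28, 11.96 and 11.79 without it. In control cells it read 13.37, 13.18 and 12.96 with IgM, against 12.41, 12.18 and 11.79 without it. The groups did not overlap in either genotype, and in each of the 4 groups replicate 1 was the highest and replicate 3 the lowest. Ldha rose 1.94-fold in deleted cells (log2 0.96 ± 0.28 SE, limma adjusted p = 0.0353) and 2.06-fold in control cells (log2 1.05 ± 0.28 SE, adjusted p = 0.0221). These calls held under 13 and 18 of 22 alternatives. The replicate block narrowed them to adjusted p-values of 0.00148 and 0.000793, and without deleted IgM replicate 3 the rise in deleted cells was 1.21. Ldhb, the subunit of heart-type lactate dehydrogenase, passed the filter through 1 array in each group and was not called in either genotype, with a difference in deleted cells of -0.0033 on all arrays and 0.35 without deleted IgM replicate 3.

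Pfkfb3 and Pfkfb4, bifunctional enzymes that make and remove the sugar bisphosphate that switches phosphofructokinase on, moved in opposite directions. Pfkfb3 read 7.38, 7.18 and 7.68 in deleted cells with IgM, against 6.81, 6.33 and 6.81 without it, and 7.46, 7.23 and 7.39 in control cells with IgM, against 6.75, 6.58 and 6.59 without it. It rose 1.70-fold (log2 0.76 ± 0.21 SE, limma adjusted p = 0.0256) in deleted cells and 1.64-fold (log2 0.72 ± 0.21 SE, adjusted p = 0.0310) in control cells, which held under 19 and 16 of 22 alternatives. Pfkfb4 read 5.33, 5.55 and 5.57 in deleted cells with IgM, against 6.44, 6.18 and 6.37 without it, and 5.26, 5.82 and 5.06 in control cells with IgM, against 6.96, 6.75 and 7.09 without it. Its fall was 1.80-fold in deleted cells (log2 -0.85 ± 0.22 SE, adjusted p = 0.0231) and 2.93-fold in control cells (log2 -1.55 ± 0.22 SE, adjusted p = 0.000889), and neither pair of groups overlapped. The calls held under 18 and under all 22 alternatives. Hif1a, the oxygen-regulated subunit of the transcription factor, differed by 0.27 ± 0.33 in deleted cells, or -0.18 without deleted IgM replicate 3, and by -0.12 ± 0.33 in control cells.

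At the entry of pyruvate into the mitochondrion, Pdk1, a kinase that inhibits pyruvate dehydrogenase, fell in control cells. It read 7.97, 7.31 and 7.77 there with IgM, against 9.14, 8.63 and 8.94 without it, a 2.34-fold fall (log2 -1.22 ± 0.31 SE, limma adjusted p = 0.0186) that held under 18 of 22 alternatives. In deleted cells it read 8.16, 7.86 and 9.04 with IgM, against 8.95, 8.61 and 9.09 without it, and the array that stood apart was the one that overlapped. The difference there was -0.53 ± 0.31 (adjusted p = 0.273), and -0.87 without that array (adjusted p = 0.0261). Further passing probe sets of Pdk1 gave -1.08 and -1.14 in control cells and -0.43 and -0.58 in deleted cells. Pdk3, a second such kinase, and the pyruvate dehydrogenase subunits Pdha1, Pdhb and Dlat were not called, with differences of -0.21 to 0.25 in deleted cells and -0.39 to 0.43 in control cells. Both ends of the range in deleted cells turned sign without deleted IgM replicate 3, Pdhb from -0.21 to 0.15 and Pdha1 from 0.25 to -0.04. The dimmer passing probe set of Pdhb gave 0.70 in deleted cells, or 0.74 without that array, and 0.57 in control cells. Further passing probe sets of Dlat gave 0.19 and 0.90 in deleted cells and 0.38 and 0.69 in control cells. That of Pdha1 gave 0.33 in deleted and 0.08 in control cells.

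No gene of the pentose phosphate branch was called with IgM in the analysis of all 12 arrays, in either genotype. Pgd, the phosphogluconate dehydrogenase that yields NADPH, read 11.87, 11.90 and 11.68 in deleted cells with IgM, against 11.41, 11.44 and 11.02 without it. The groups did not overlap, and the difference of 0.53 ± 0.20 (limma adjusted p = 0.0900) passed the threshold with the replicate block (adjusted p = 0.0154) and without deleted IgM replicate 3 (adjusted p = 0.0416). In control cells Pgd differed by 0.37 ± 0.20. Tkt, the transketolase that links the branch back to glycolysis, differed by 0.43 ± 0.24 in deleted cells and 0.44 ± 0.24 in control cells. Other passing probe sets of Tkt gave 0.24 and 1.87 in deleted cells and 0.38 and 1.64 in control cells. The larger values came from a dim probe set, with a mean of 4.70 over the 12 arrays, which gave 1.53 in deleted cells without deleted IgM replicate 3.

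Taldo1, the transaldolase of the same branch, read 11.20, 10.95 and 8.98 in deleted cells with IgM, against 11.82, 11.47 and 11.23 without it, and 10.99, 10.71 and 10.40 in control cells with IgM, against 11.95, 11.37 and 11.26 without it. All 3 same-numbered pairs were lower in both genotypes, and the groups did not overlap. Its difference in deleted cells was -1.13 ± 0.49, past the threshold with the block (adjusted p = 0.0312), and -0.43 without deleted IgM replicate 3 (adjusted p = 0.283). In control cells it was -0.82 ± 0.49 (adjusted p = 0.295), and past the threshold when deleted IgM replicate 3 left the shared spread (adjusted p = 0.0229). Pgls, the lactonase that follows the first step of the branch, differed by -1.10 ± 0.73 in deleted cells, or -0.16 without that array, and by -0.48 ± 0.73 in control cells.

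By array, 11 of the 29 genes did not overlap between IgM and no IgM in deleted cells, and 12 in control cells. Over all tested genes the groups did not overlap for 34.5% in deleted cells and 45.5% in control cells, so these counts stand near the background. A shared order of the replicate numbers likewise stood near the background: 7 of 29 (24.1%) had the same highest and the same lowest replicate number in all 4 groups, against 22.6% of all tested genes.

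Of 62 further genes of the pathway, its branches, its activators and the hypoxia response, 42 were tested. In deleted cells 5 rose and 5 fell with IgM, where 19.0% of all genes were called, and in control cells 8 rose and 8 fell, where 20.7% were. With the replicate block 10 rose and 8 fell in deleted cells (36.7% of all genes) and 10 rose and 10 fell in control cells (35.5%). Without deleted IgM replicate 3, 6 rose and 7 fell in deleted cells (25.7%) and 11 rose and 10 fell in control cells (36.1%). Myc, a transcription factor known to activate glycolytic genes, rose 5.60-fold in deleted cells (log2 2.49 ± 0.30 SE, limma adjusted p = 0.000433) and 3.74-fold in control cells (log2 1.90 ± 0.30 SE, adjusted p = 0.00139). Vegfa, a growth factor induced by hypoxia, rose by 3.71 ± 0.59 and 3.02 ± 0.59 on the log2 scale in deleted and control cells, and Ero1a, a further hypoxia response gene, by 1.51 ± 0.28 in deleted cells. Mxi1, an antagonist of Myc, fell by 1.08 ± 0.21 in deleted and by 1.72 ± 0.21 in control cells.

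Among the enzymes and transporters of those further genes, Slc2a8, a glucose transporter family member of internal membranes, fell by 1.69 ± 0.27 in deleted cells and by 2.11 ± 0.27 in control cells. Pdk2, a further pyruvate dehydrogenase kinase, fell by 1.88 ± 0.39 in deleted and by 2.70 ± 0.39 in control cells, with values of 2.51 to 3.05 with IgM that lay close to the floor, so the falls are compressed. It was above 4 on 5 of the 6 arrays without IgM and on 0 of the 6 with IgM, so the filter passed it only through the arrays without IgM. In control cells the neuronal enolase Eno2 read 4.07, 4.79 and 6.15 with IgM, against 2.60, 2.51 and 2.71 without it. It was above 4 on 5 of the 6 arrays with IgM and on 0 of the 6 without it, so it passed the filter only through the IgM arrays, and its difference of 2.40 ± 0.53 starts near the floor. Also in control cells, Slc2a6 fell by 1.21 ± 0.25 and Prps2, which makes the activated ribose used for nucleotides, fell by 1.04 ± 0.23. In deleted cells Tktl1, a transketolase-like protein, fell by 2.62 ± 0.29 and Bpgm, the bisphosphoglycerate mutase best known from red cells, by 1.31 ± 0.26. The limma adjusted p-values of these calls were 0.00969 or less, and those named in deleted cells stayed at 0.0153 or less without deleted IgM replicate 3. For Pdk2 and Eno2, however, the filter built a difference into the choice, so their values are a description. With no filter on low values the limma adjusted p-values of Pdk2 were 0.0279 in deleted and 0.00477 in control cells. That of Eno2 in control cells was 0.0377.

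The sequences just upstream of the transcription starts of the 6 genes called with IgM in both genotypes are shown because Myc and Hif1a are among the known activators of glycolytic genes and bind short motifs there. They are the 250 bases before a RefSeq start in assembly GRCm38.p6, read 5′ to 3′ on the strand of the gene. Capitals mark CACGTG, the E-box that Myc can bind, and ACGTG, a core of the hypoxia response element, read on either strand. CACGTG holds ACGTG on both strands, so each E-box is also counted as an ACGTG. Ldha has 2 listed starts, with windows at chr7:46845554-46845803 (start 1) and chr7:46846832-46847081 (start 2) on the plus strand, and Pfkfb3 has 2, at chr2:11502091-11502340 (start 1) and chr2:11553930-11554179 (start 2) on the minus strand. The others have 1 each. Slc16a1 lies at chr3:104638414-104638663 on the plus strand, Hk2 at chr6:82774455-82774704 and Pfkp at chr13:6648772-6649021 on the minus strand, and Pfkfb4, which fell, at chr9:108991652-108991901 on the plus strand.
Ldha start 1: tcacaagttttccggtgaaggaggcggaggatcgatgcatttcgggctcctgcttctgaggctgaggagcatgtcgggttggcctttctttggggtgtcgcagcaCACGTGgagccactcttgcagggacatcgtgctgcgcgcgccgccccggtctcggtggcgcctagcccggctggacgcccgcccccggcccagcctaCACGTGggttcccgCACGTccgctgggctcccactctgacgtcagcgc
Ldha start 2: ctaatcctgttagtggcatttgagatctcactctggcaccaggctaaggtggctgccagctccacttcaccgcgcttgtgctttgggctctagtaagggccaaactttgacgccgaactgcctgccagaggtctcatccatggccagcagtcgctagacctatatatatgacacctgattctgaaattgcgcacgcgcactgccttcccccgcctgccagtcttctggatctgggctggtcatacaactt
Slc16a1: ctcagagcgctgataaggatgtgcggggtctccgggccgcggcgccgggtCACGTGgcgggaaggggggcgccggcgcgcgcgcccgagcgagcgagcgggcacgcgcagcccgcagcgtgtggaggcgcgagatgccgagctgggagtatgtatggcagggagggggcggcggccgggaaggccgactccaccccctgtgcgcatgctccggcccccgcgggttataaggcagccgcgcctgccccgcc
Pfkfb3 start 1: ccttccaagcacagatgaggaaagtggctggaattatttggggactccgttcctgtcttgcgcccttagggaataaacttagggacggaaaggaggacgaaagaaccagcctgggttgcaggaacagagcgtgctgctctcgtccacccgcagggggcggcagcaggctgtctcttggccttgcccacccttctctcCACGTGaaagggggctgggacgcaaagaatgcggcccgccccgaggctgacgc
Pfkfb3 start 2: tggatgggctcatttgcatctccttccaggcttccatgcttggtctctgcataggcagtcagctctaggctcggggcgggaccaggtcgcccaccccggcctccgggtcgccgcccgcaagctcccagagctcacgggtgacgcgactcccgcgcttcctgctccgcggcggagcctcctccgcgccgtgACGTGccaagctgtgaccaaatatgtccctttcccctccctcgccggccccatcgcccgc
Hk2: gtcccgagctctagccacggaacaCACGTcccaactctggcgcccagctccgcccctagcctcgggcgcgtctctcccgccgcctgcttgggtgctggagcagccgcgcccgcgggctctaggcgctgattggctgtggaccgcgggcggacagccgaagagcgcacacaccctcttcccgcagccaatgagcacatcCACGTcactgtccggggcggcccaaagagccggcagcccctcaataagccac
Pfkp: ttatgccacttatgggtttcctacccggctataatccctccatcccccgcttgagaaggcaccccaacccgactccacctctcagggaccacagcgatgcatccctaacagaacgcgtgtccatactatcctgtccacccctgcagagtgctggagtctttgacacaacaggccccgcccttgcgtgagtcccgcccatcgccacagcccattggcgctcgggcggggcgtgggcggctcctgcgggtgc
Pfkfb4: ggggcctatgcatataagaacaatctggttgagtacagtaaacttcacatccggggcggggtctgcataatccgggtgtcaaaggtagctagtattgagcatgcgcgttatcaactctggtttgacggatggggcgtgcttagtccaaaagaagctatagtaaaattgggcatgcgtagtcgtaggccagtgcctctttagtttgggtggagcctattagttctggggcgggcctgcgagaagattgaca
The first Ldha window held 2 E-boxes and 1 copy of ACGTG outside an E-box, and the second held 0 of both. The first Pfkfb3 window held 1 E-box, and the second 1 copy of ACGTG outside an E-box. The Slc16a1 window held 1 E-box and the Hk2 window 2 copies of ACGTG outside an E-box. The windows of Pfkp, which rose, and of Pfkfb4, which fell, had no capitals, so CACGTG and ACGTG are not in them. GCGTG, the other core of the hypoxia response element, is not marked. The Pfkp window held 3 copies of it, that of Slc16a1 2, that of Pfkfb4 1 and that of Hk2 0. The second Ldha window and the first Pfkfb3 window held 1 each. Of the 4 genes called in a single genotype, Slc2a1 and Pgam1 had 1 window each with 1 ACGTG and 0 E-boxes, and Hk1 and Pdk1 had 2 windows each with 0 of both. GCGTG was there in all 4 genes, with 1 copy for Slc2a1, 2 for Pgam1, 3 in 1 window of Hk1 and 1 in 1 window of Pdk1. In all, 35 of the 36 genes had 49 such windows. An E-box was in 5 of them (10.2%), in the genes Ldha, Slc16a1, Pfkfb3, Hif1a and Pfkm, against 6.02% of all 32851 windows and 8.75% of the windows of tested genes. ACGTG was in 18 windows (36.7%), against 16.6% of all and 22.7% of those of tested genes. GCGTG was in 29 (59.2%), against 28.2% and 46.0%. TGTTTAC, a core that forkhead factors can bind, was in 1 window, that of Aldoc, against 3.17% of all windows and 2.17% of those of tested genes. A match is a description of the letters and shows no binding.

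Between genotypes, few glycolysis or pentose phosphate genes differed. With IgM, 1 of the 29, the hexokinase Hk3, was higher in deleted cells than in control cells and none was lower, where 1.72% of all genes were called, 1.59% being higher. Without IgM none of the 29 was called by limma, where 2.85% of all genes were, 2.03% being higher. At an unadjusted p under 0.05 there were 4 without IgM. The median log2 difference of the 29 was 0.06 with IgM, against 0.08 over all genes, and -0.02 without IgM, against 0.00. Groups did not overlap for 2 genes with IgM, Hk1 and Hk3, against 17.9% of all genes, and for 5 without IgM, Hk1, Hk3, Rpia, Slc16a1 and Pfkfb4, against 18.9%.

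Hk3, a hexokinase known mainly from myeloid cells, read 5.99, 5.83 and 5.89 in deleted cells with IgM, against 3.27, 4.15 and 3.44 in control cells with IgM. Without IgM it read 5.84, 5.65 and 4.41 in deleted cells, against 4.18, 4.21 and 3.04 in control cells. It was above 4 on all 6 arrays of deleted cells and on 3 of the 6 of control cells. Those 3 control arrays read 4.15 to 4.21, so the control cells alone only just met the filter. It was 4.86-fold higher in deleted cells with IgM (log2 2.28 ± 0.42 SE, limma adjusted p = 0.0235), and 2.29 higher on the log2 scale without deleted IgM replicate 3 (adjusted p = 0.0424), where 2.35% of all genes were called. With the replicate block 6.76% were, and Hk3 was again the only one of the 29.

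The Hk3 call held under 15 of 21 alternatives, with adjusted p-values of 0.00505 to 0.113. It was lost with no filter on low values, with the arrays without IgM left out of the fit, and without deleted IgM replicate 1 or 2 or control IgM replicate 1 or 3. Without IgM the difference was 1.49 ± 0.42 (adjusted p = 0.111), with all 3 same-numbered pairs higher, and with the replicate block it passed the threshold (adjusted p = 0.0254). Its probe set has a name that marks probes shared with other transcripts, and the dimmer probe set of the gene, which did not pass the filter, differed by 0.48 with IgM and 0.33 without.

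**Figure D4:**
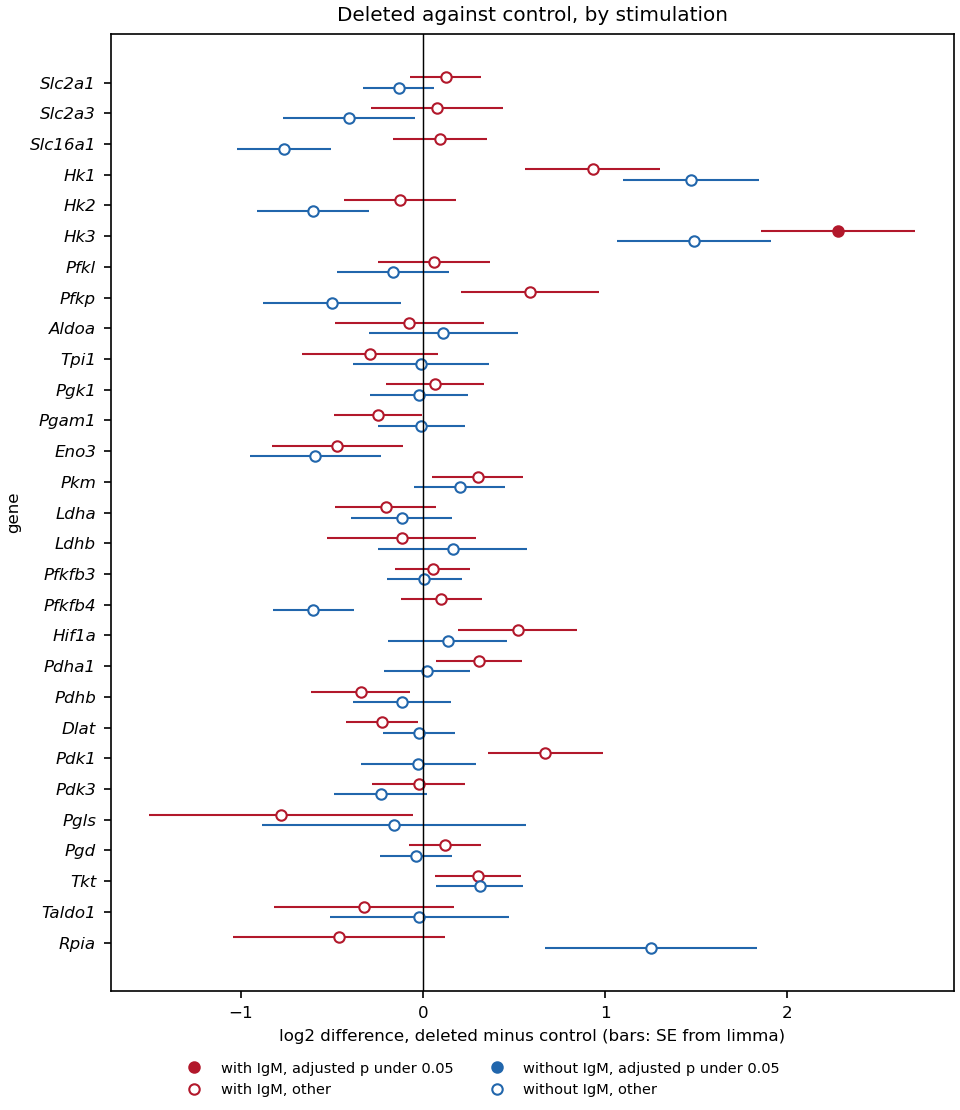
Log2 difference of deleted minus control cells for each of the 29 tested genes (horizontal axis), with IgM (red) and without IgM (blue), with standard errors from limma as bars. The filled point passed an adjusted p of 0.05. Hk3 with IgM, at 2.28, lies farthest right, followed by Hk3 and Hk1 without IgM, at 1.49 and 1.47.

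Markers of other cell types differed between the genotypes beside Hk3. The summed linear level of the 6 of 8 macrophage and monocyte markers with a probe set, of which Itgam lay below 2.5 on all arrays, was 467 to 2430 in deleted cells with IgM, against 177 to 454 in control cells with IgM, and 750 to 3065 in deleted cells without IgM, against 215 to 555 in control cells without it. That of 8 neutrophil and granule markers was 1749 to 13422 in deleted cells with IgM, against 229 to 1510 in control cells with IgM, and 3352 to 23106 in deleted cells without IgM, against 329 to 2700 in control cells without it. Of these, 5 and 8 were tested. Csf1r was higher in deleted cells both with IgM (log2 3.99, limma adjusted p = 0.0198) and without it (log2 3.69, adjusted p = 0.0199). It was above 4 on 3 of 3 arrays in each deleted group and on 1 of 3 in each control group. The filter thus passed Csf1r only through the deleted cells, and its values are a description. Adgre1 was lower in deleted cells without IgM (log2 -1.45, adjusted p = 0.0334). None of the neutrophil and granule markers was called, with 1 at an unadjusted p under 0.05 with IgM and 3 without. Of 8 NK cell markers 7 had a probe set and summed to 348 to 1737 in deleted cells with IgM, against 201 to 1053 in control cells with IgM, and to 887 to 2660 in deleted cells without IgM, against 296 to 1641 in control cells without it. The part of these markers in the Hk3 result, and in the genotype differences that follow, was not tested.

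Hk1 read 10.60, 10.38 and 9.74 in deleted cells without IgM, against 8.62, 9.43 and 8.25 in control cells without it, and 8.54, 8.62 and 8.84 in deleted cells with IgM, against 7.45, 8.42 and 7.34 in control cells with it. No array of deleted cells overlapped one of control cells at the same stimulation. The difference without IgM was 1.47 ± 0.37 (limma adjusted p = 0.0695), and passed the threshold with the replicate block (adjusted p = 0.0170), where 6.89% of all genes were called. With IgM it was 0.93 ± 0.37 (adjusted p = 0.298), and 0.0963 with the block. The second probe set of Hk1 gave differences of 1.62 without IgM and 0.87 with IgM.

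Rpia, the isomerase that makes the ribose phosphate used for nucleotides, read 11.92, 11.99 and 11.65 in deleted cells without IgM, against 10.86, 10.67 and 10.29 in control cells without it. Every array of the deleted cells lay above every array of the control cells, by 1.25 ± 0.58 on average (limma adjusted p = 0.502). The standard error comes from the spread shared by all 4 groups, which for Rpia includes deleted IgM replicate 3 at 8.31, against 11.06 and 10.89 on its mates. Without that array the difference stayed 1.25, its standard error was 0.20 and the adjusted p 0.00492, where 5.93% of all genes were called.

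With IgM, the Rpia difference of deleted minus control cells was -0.46 ± 0.58 on all arrays and 0.43 without deleted IgM replicate 3, so its sign rests on that array, and neither passed the threshold (limma adjusted p = 0.704 and 0.464). Within the deleted cells, the difference of IgM minus no IgM was -1.77 ± 0.58 (adjusted p = 0.0572), and it passed the threshold with the replicate block (adjusted p = 0.0146) and, at -0.88, without that array (adjusted p = 0.0156). In control cells the IgM difference was -0.06 ± 0.58.

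Slc16a1 read 9.84, 9.93 and 9.60 in deleted cells without IgM, against 10.46, 10.79 and 10.41 in control cells without it. The groups did not overlap, with a difference of -0.76 ± 0.26 (limma adjusted p = 0.211), which passed the threshold without deleted IgM replicate 3 (adjusted p = 0.0173). With IgM the difference was 0.09 ± 0.26, or -0.21 without that array. Pfkfb4 lay at 6.18 to 6.44 in deleted cells without IgM, against 6.75 to 7.09 in control cells without it, a difference of -0.60 ± 0.22 (adjusted p = 0.287). Hk2 and Pfkp differed by -0.60 ± 0.31 and -0.50 ± 0.38 without IgM and were not called.

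**Figure D5:**
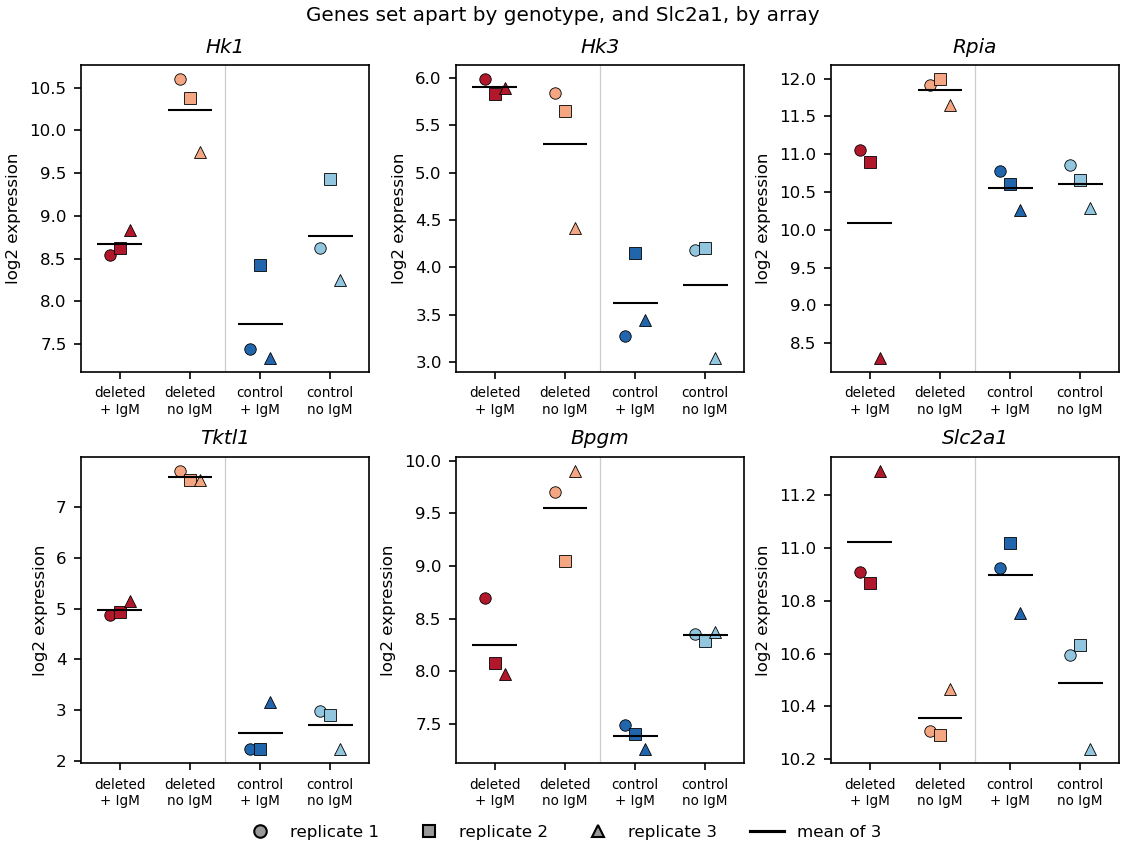
Log2 expression of Hk1, Hk3, Rpia, Tktl1, Bpgm and Slc2a1 on each array (vertical axis, a separate scale per gene), with deleted cells left and control cells right and the IgM arrays before those without IgM. Symbols give the replicate number and lines the mean of 3 arrays. Tktl1 lies at 7.53 to 7.72 in deleted cells without IgM, and Rpia on deleted IgM replicate 3 falls to 8.31.

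Outside the 36 genes, 2 of the 42 further pathway genes, Tktl1 and Bpgm, were higher in deleted cells without IgM (2.03% of all genes), and 1, Tktl1, with IgM (1.59%). With the replicate block there were 3 with IgM, where 6.76% of all genes were called, and without IgM Tktl1 and Bpgm were higher and Myc lower, where 6.89% were. Tktl1 read 7.72, 7.53 and 7.54 in deleted cells without IgM, against 2.98, 2.91 and 2.24 in control cells without it, and 4.87, 4.92 and 5.14 in deleted cells with IgM, against 2.23, 2.23 and 3.17 in control cells with it. It was above 4 on 6 of 6 arrays of deleted cells and on 0 of 6 of control cells, so the filter passed it only through the deleted cells and a difference was built into the choice. The control values lay at or near the floor, so the difference is also compressed. As a description it was 4.89 ± 0.29 without IgM (limma adjusted p = 7.33e-06) and 2.43 ± 0.29 with IgM (adjusted p = 0.00209). With no filter on low values the adjusted p-values were 0.000243 without IgM and 0.0112 with IgM. The Tktl1 probe set has a name that marks probes shared with other transcripts. The gene had 3 probe sets, of which 2 passed the filter, and only the brighter of these is given here.

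Bpgm read 9.71, 9.05 and 9.91 in deleted cells without IgM, against 8.36, 8.29 and 8.37 in control cells without it, a 2.32-fold difference (log2 1.21 ± 0.26 SE, limma adjusted p = 0.0330) that held under 12 of 22 alternatives. With IgM it read 8.69, 8.08 and 7.97 in deleted cells, against 7.49, 7.41 and 7.26 in control cells, with no overlap. The Bpgm probe set also has a name that marks shared probes. All 3 probe sets of the gene passed the filter, and only the brightest is given here. The summed level of the 4 of 8 erythroid markers with a probe set, of which Hba-a1 lay below 2.5 on all arrays, was 128 to 857 in deleted cells without IgM, against 68.8 to 110 in control cells without it. This sum is mostly Alas2, the only one that passed the filter. Epor lay at 2.31 to 2.54 and Klf1 at 2.23 to 3.34 over all arrays, at or near the floor. The part of those markers in the Bpgm result was not tested.

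The difference between genotypes in the response to IgM was tested as an interaction, which subtracts the deleted minus control difference of the unstimulated cells from that of the IgM cells. None of the 29 genes passed the threshold in limma, where 0.108% of all genes were called, and none did with the block alone or without deleted IgM replicate 3 alone, where 0.172% were called in each case. At an unadjusted p under 0.05 there were 2, Slc16a1 with 0.86 ± 0.37 and Pfkfb4 with 0.70 ± 0.32, both at an adjusted p of 0.951. Without deleted IgM replicate 3 these were 0.56 and 0.66. Thus the 5.87-fold rise of Slc16a1 in deleted cells was not shown to exceed the 3.25-fold rise in control cells, nor the 2.93-fold fall of Pfkfb4 in control cells the 1.80-fold fall in deleted cells. Rpia had an interaction of -1.71 ± 0.82, and -0.82 ± 0.29 without deleted IgM replicate 3, with an adjusted p of 0.749. With the block and without that array it passed the threshold (adjusted p = 0.0156), where 2.01% of all genes did. None of the 42 further pathway genes was called, and Tktl1 came nearest with -2.45 (limma adjusted p = 0.0726, or 0.136 with no filter on low values). The filter passed Tktl1 only through the deleted cells. Its control values lay at or near the floor with and without IgM, where a fall cannot be read, so the value does not compare the responses.

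Of the 36 genes, 7 could not be tested. Slc16a3, the muscle phosphofructokinase Pfkm and the aldolase Aldoc had a probe set but did not pass the filter. Pfkm lay between 2.23 and 2.48, and Aldoc between 2.48 and 5.20, with its highest value in control cells without IgM. Gpi1, Eno1 and G6pdx, the enzymes that follow hexokinase, make phosphoenolpyruvate and open the pentose phosphate branch, had no probe set that the annotation used here gave to them alone. Gapdh, the dehydrogenase at the centre of the chain, was named by probe sets that name several genes and by the control probe sets of the array. Its 3 control probe sets read 11.24 to 11.63 on deleted IgM replicate 3, against 12.16 to 13.07 on the other 11 arrays, so Gapdh too read low on the array that stood apart.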

How the data were processed

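RNA was measured on 12 arrays, whose number limits the precision. The submitters' processing notes name GCRMA for the log2 values that the authors deposited, with version and settings not given in the sources used here. GCRMA corrects background, normalizes arrays by quantiles and compresses differences near its floor. Of 45101 probe sets, 64 controls, 932 with several genes and 9160 with none were left out, and symbols came from the platform annotation, updated by gene identifier. A gene was read by its brightest probe set above a log2 of 4 on at least 3 arrays.

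The tests used limma 3.58.1 (R 4.3.3), with a mean for each of the 4 groups and a spread shared by all of them, two-sided, with Benjamini-Hochberg adjustment over 9293 genes and a threshold of 0.05. Errors are SE from this model. The steps were tested on simulated data. Genes past the threshold are named, of the further pathway genes up to 8 a comparison by smallest p. The members and lists were chosen with earlier results of these data known.

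Replicate numbers come from the labels. Arrays with the same number left their group means together: these deviations correlated at 0.55 to 0.78 between genotypes without IgM, 0.17 to 0.80 with IgM, 0.32 to 0.72 in deleted cells and 0.69 to 0.85 in control cells. All exceed 0.1, so the replicate number entered as a block in an alternative fit. The main tests, with their counts, adjusted p-values and standard errors, did not pair the arrays. For the 29 genes values with the replicate block stand where they change a call. Alternatives covered the block, filter, probe sets, normalization, variance model, array weights and arrays left out.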

Additional observations from a re-analysis of the deposited data

How the results depend on the processing

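Between genotypes without IgM, where no gene of the 29 was called on all 12 arrays, the replicate block called 2, the block without deleted IgM replicate 3 called 6, array weights 4 and a fit of only the arrays compared 1. Leaving out each array in turn gave 0 to 2, with 2 without deleted IgM replicate 3 and 1 without deleted replicate 3 or control replicate 2 of the arrays without IgM. With IgM, the single call became 0 with no filter, with a filter above 6 (which removed Hk3) and with only the arrays compared, and 0 to 1 when each array was left out. The 8 calls for IgM in deleted cells became 17 with the block and without deleted IgM replicate 3, 13 with array weights, 4 with only the arrays compared and 3 to 12 when each array was left out. The lowest values, 3, 4 and 5, came when 1 of the deleted arrays without IgM was left out. The 8 calls for IgM in control cells became 16 with the block and without deleted IgM replicate 3 and 3 to 9 when each array was left out. There, leaving out any of the 6 control arrays gave 3 to 5. The interaction gave 1 call with the block and without deleted IgM replicate 3, and 0 to 0 when each array was left out. Under the other settings, the block included, the counts stayed within 1.5 times, except as named, and the cause of the moves was not tested. Over all 9293 genes, the block called 628 against 160 between genotypes with IgM, 640 against 265 without IgM, 3408 against 1765 for IgM in deleted cells and 3299 against 1920 in control cells. For the 28 pairs of gene and comparison past the threshold on all arrays, with the block or without deleted IgM replicate 3, 614 values were computed under alternatives, of which none changed sign, 505 kept their side of the threshold, 67 lost it and 42 gained it. Of the other 117 pairs, none called on all arrays, 69 changed sign under at least 1 alternative. Standard errors of 0.20 to 0.73 over the 29 genes limit which differences could be called, and values near the floor have no order.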
